A study of Tursiops truncatus with 17 samples.

Results

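Laminins are cross-shaped proteins built from 1 alpha, 1 beta and 1 gamma chain, and they form the first sheet of a basement membrane, the thin matrix layer that cells rest on. Perlecan, encoded by HSPG2, is a large proteoglycan that carries heparan sulfate chains and is woven into that sheet. In the brain, basement membranes wrap the endothelium and mural cells of blood vessels and underlie the astrocyte endfeet at vessels and at the pial surface. Each laminin chain has its own gene, and the alpha chain carries the main binding sites for integrins and dystroglycan on the cell surface.

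The genes described here are 5 alpha chains (LAMA1, LAMA2, LAMA3, LAMA4 and LAMA5), 2 beta chains (LAMB1 and LAMB2), 2 gamma chains (LAMC1 and LAMC3) and HSPG2. They were taken by symbol from the gene names in the files, and all 10 were found, each on 1 row, among 21265 genes. All 10 passed the filter on low counts. Messenger RNA was sequenced from the cerebral cortex of 17 bottlenose dolphins (Tursiops truncatus), 8 labelled non-bloom season and 9 labelled bloom season, with 1 library from each dolphin. All animals are labelled WT, and all tissue was frozen archive material from necropsies. The labels give no age, sex, date, cause of death, toxin level or sequencing batch, so nothing that followed the season can be told apart from it. Dolphins are numbered here within their season in order of deposition.

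Values are levels in CPM (counts per 1000000 reads of a library whose size was scaled with TMM, the trimmed mean method of edgeR). They are per gene and not per length, so they are compared between libraries and not between genes. Non-bloom libraries held 12346713 to 15635292 reads and bloom libraries 7680050 to 12572653, a difference that passed a two-sided exact permutation test (p = 0.000288; adjusted over 3 measures of the libraries, 0.000864). Mitochondrial transcripts took 9.68% to 22.1% of reads in non-bloom libraries and 1.47% to 77.2% in bloom libraries. Bloom 9, 5 and 6 had the highest shares, and their reads of nuclear genes numbered 1753299, 4039857 and 6719605, fewer than in any other library. The changes of the 10 genes, and the calls in the gene lists, are given with and without these 3 libraries. In bloom 9 the 10 genes had between 7 reads (LAMC3) and 248 reads (LAMB1). HSPG2 there had 9 reads, a level of 5.14 with an exact Poisson interval (95%) of 2.35 to 9.76, which covers counting error only.

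Of the 10 genes, 3 rose in the bloom season: LAMA1, LAMB2 and LAMA3 (limma, Benjamini-Hochberg adjusted p under 0.05 over 13548 genes tested). None fell. Over all genes tested 4.47% were called higher and 4.69% lower. A positive change was found in 9 of the 10, against 49.7% of all genes tested, and the exception was LAMB1, whose small change took a positive sign in some other fits. The median log2 change of the 10 was 0.74, beside -0.0034 over all genes. At an unadjusted p under 0.05, 7 of the 10 were higher, beside 16.4% of all genes. edgeR on the recovered reads called the same 3, where 6.07% of all genes were called higher. DESeq2 and voom with quality weights called 8, these 3 with LAMA2, LAMA4, LAMA5, LAMC1 and HSPG2, where 14.4% and 14.7% of all genes were called higher. Without bloom 5, 6 and 9 the only gene called was HSPG2 (1.68% of all genes were called higher there; edgeR called 0 of the 10 and 1.34% of all genes), and the median log2 change was 0.62. LAMA1 was at 1.59 there (SE 0.43, limma adjusted p = 0.0591), LAMB2 at 0.90 (SE 0.23, limma adjusted p = 0.0537) and LAMA3 at 0.62 (SE 0.17, limma adjusted p = 0.0636). LAMA5, LAMA4, LAMA2 and LAMC1 were at 0.67, 0.63, 0.52 and 0.50, and LAMB1 was at -0.02. The cortex was sequenced in bulk, so more cells of a type and more RNA per cell cannot be told apart in any of these results.

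**Figure D1:**
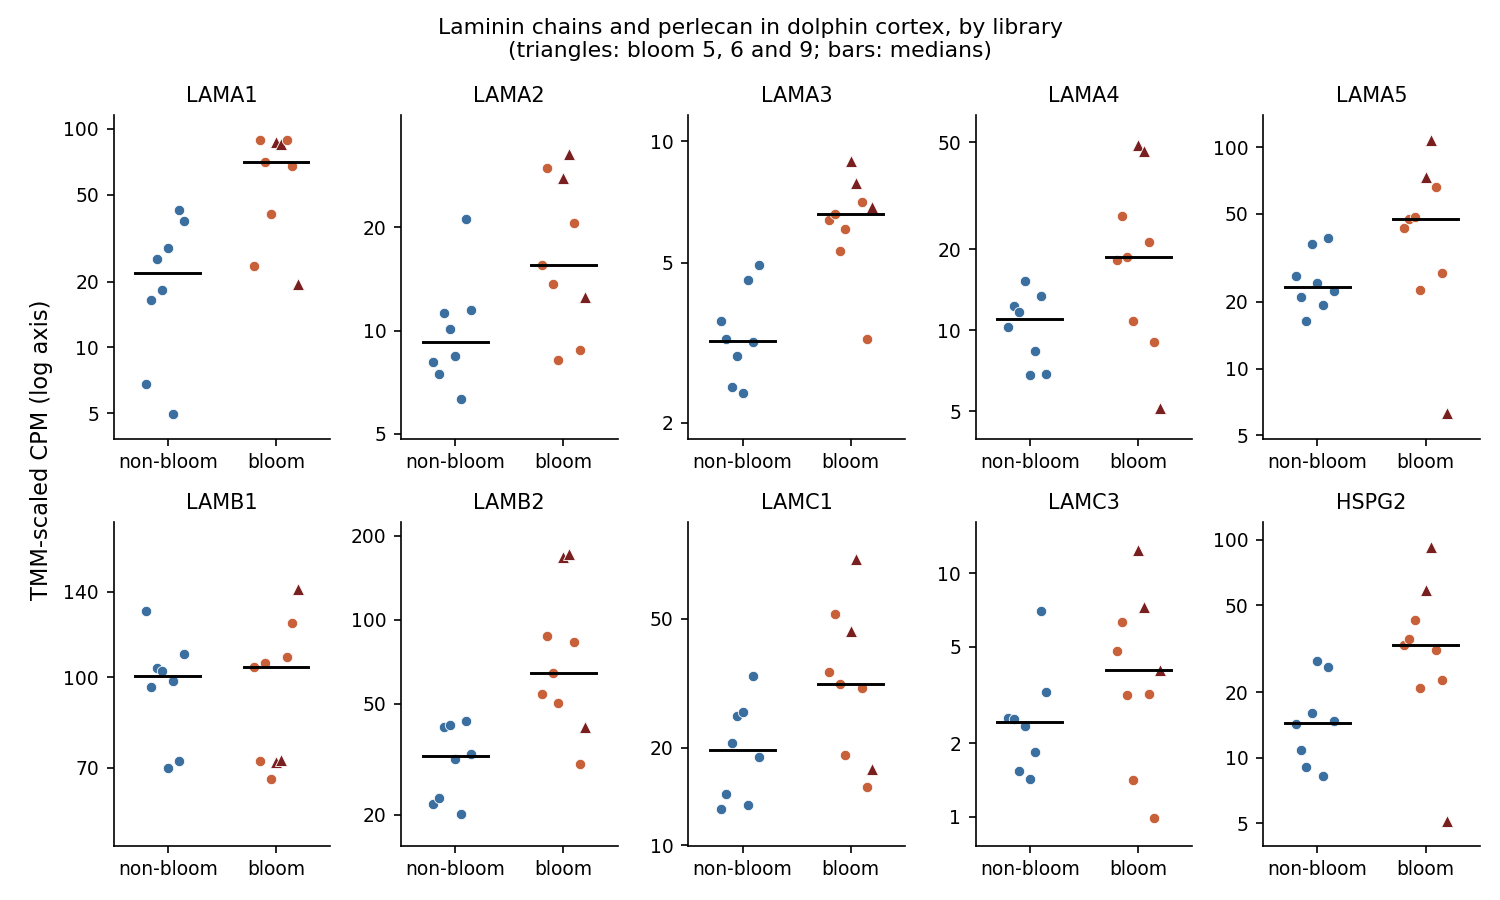
Level of each gene (TMM-scaled CPM, log axis, own range in each panel) in 8 non-bloom and 9 bloom libraries, 1 point a library; bars are medians, and triangles mark bloom 5, 6 and 9. In LAMA3, 8 of 9 bloom libraries lie above every non-bloom library, in LAMB2 7 and in LAMA1 6, while for LAMB1 the seasons cover the same range.

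Among the alpha chains, LAMA1 encodes the chain of the earliest laminin of the embryo, which persists in the adult at the pial basement membrane. Its level in non-bloom cortex had a lowest value of 4.97, a median of 21.8 and a highest of 42.6. In bloom cortex these were 19.4, 70.4 and 89.2. Bloom 9 (19.4), bloom 1 (23.6) and bloom 4 (40.7) lay inside the non-bloom range, and the other 6 lay above it. The mean was 22.6 ± 13.6 (SD, n = 8) against 63.5 ± 28.4 (SD, n = 9). The log2 change was 1.55 (SE 0.41, limma adjusted p = 0.0370), the largest of the 10. All log2 changes are on the log2(level + 1) scale, and for low genes they come out smaller than the change in level.

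LAMA3 is best known as the alpha chain of epithelial laminin in skin. Its levels were low in both seasons, with a lowest value of 2.37, a median of 3.20 and a highest of 4.93 in non-bloom cortex and 3.23, 6.60 and 8.96 in bloom cortex. Only bloom 8, at 3.23, lay inside the non-bloom range. The log2 change was 0.76 (SE 0.17, limma adjusted p = 0.0261). LAMA3 had the smallest spread within bloom cortex of the 10 genes, with an SD of 24.8% of the mean, and the mean was 3.40 ± 0.916 (SD, n = 8) in non-bloom and 6.49 ± 1.61 (SD, n = 9) in bloom cortex.

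LAMA2 encodes the alpha chain of muscle laminin, whose loss causes congenital muscular dystrophy with white matter changes. Its levels ran from 6.30 over a median of 9.27 to 21.1 in non-bloom cortex, and from 8.19 over 15.5 to 32.7 in bloom cortex. The change of 0.72 (SE 0.28, limma adjusted p = 0.0856) did not pass. Bloom 6, bloom 2 and bloom 5, at 32.7, 29.9 and 27.9, lay above the non-bloom range, and non-bloom 7, at 21.1, stood above the other non-bloom libraries.

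LAMA4 and LAMA5 encode the alpha chains made by endothelial cells. LAMA4 levels ran from 6.81 over a median of 11.0 to 15.2 in non-bloom cortex, and from 5.14 over 18.6 to 48.6 in bloom cortex. LAMA5 levels ran from 16.4 over a median of 23.3 to 38.9, and from 6.29 over 47.3 to 107.6. Both genes had 6 bloom libraries above the non-bloom range, and in both bloom 9 had the lowest level of all 17. The log2 changes were 0.79 (SE 0.35, limma adjusted p = 0.117) for LAMA4 and 0.65 (SE 0.39, limma adjusted p = 0.233) for LAMA5. Without bloom 9 alone they were 1.00 and 0.96, and both passed (limma adjusted p = 0.0494 and 0.0430), in a fit where 4.85% of all genes were called higher.

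The beta chains differed in their pattern. LAMB2 is the beta chain of vessel, kidney and neuromuscular laminin. Its levels in non-bloom cortex had a lowest value of 20.1, a median of 32.4 and a highest of 43.4, and in bloom cortex 30.4, 64.2 and 172.4. Bloom 6 (172.4) and bloom 5 (168) were far above the rest, 5 more bloom libraries lay between 50.2 and 87.4, and bloom 8 (30.4) and bloom 9 (41.1) lay inside the non-bloom range. The mean was 32.0 ± 9.57 (SD, n = 8) against 83.5 ± 52.5 (SD, n = 9), and the log2 change was 1.18 (SE 0.31, limma adjusted p = 0.0349). Without bloom 5, 6 and 9 the bloom mean was 61.6 ± 21.4 (SD, n = 6) and the log2 change 0.90 (SE 0.23, limma adjusted p = 0.0537).

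LAMB1 is the beta chain of the early and most widely expressed laminins. It had a lowest value of 69.8, a median of 100.4 and a highest of 129.9 in non-bloom cortex, and 67.0, 104 and 142 in bloom cortex. The seasons overlapped almost fully, and the log2 change was -0.045 with an interval (95%) of -0.40 to 0.31 (limma adjusted p = 0.866). Bloom 9, where LAMA4, LAMA5 and HSPG2 were at their lowest, had the highest LAMB1 level of all 17 libraries. Bloom 5 and bloom 6, where LAMB2 was highest, had LAMB1 at 71.7 and 72.1, near the low end.

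The share of LAMB2 among the reads of both beta chains does not depend on library size, and since the 2 genes differ in length it is read only between libraries. It ran from 14.4% (exact binomial interval, 95%, 12.9% to 16.1%) in non-bloom 1 to 37.6% (35.5% to 39.8%) in non-bloom 7, with a mean of 25.0% ± 7.92 (SD, n = 8). In bloom cortex it ran from 19.7% (18.1% to 21.4%) in bloom 8 to 70.5% (68.5% to 72.5%) in bloom 6, with a mean of 44.0% ± 18.3 (SD, n = 9). Bloom 5 stood at 70.1% and bloom 2 at 54.9%. Without bloom 5, 6 and 9 the bloom mean was 38.8% ± 11.7 (SD, n = 6). Bloom 1, 8 and 9, at 34.2%, 19.7% and 22.5%, lay inside the non-bloom range. The other 6 lay above it, bloom 3 (37.8%) by less than its counting error. This share was formed from genes chosen with results known and is given with no test.

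**Figure D2:**
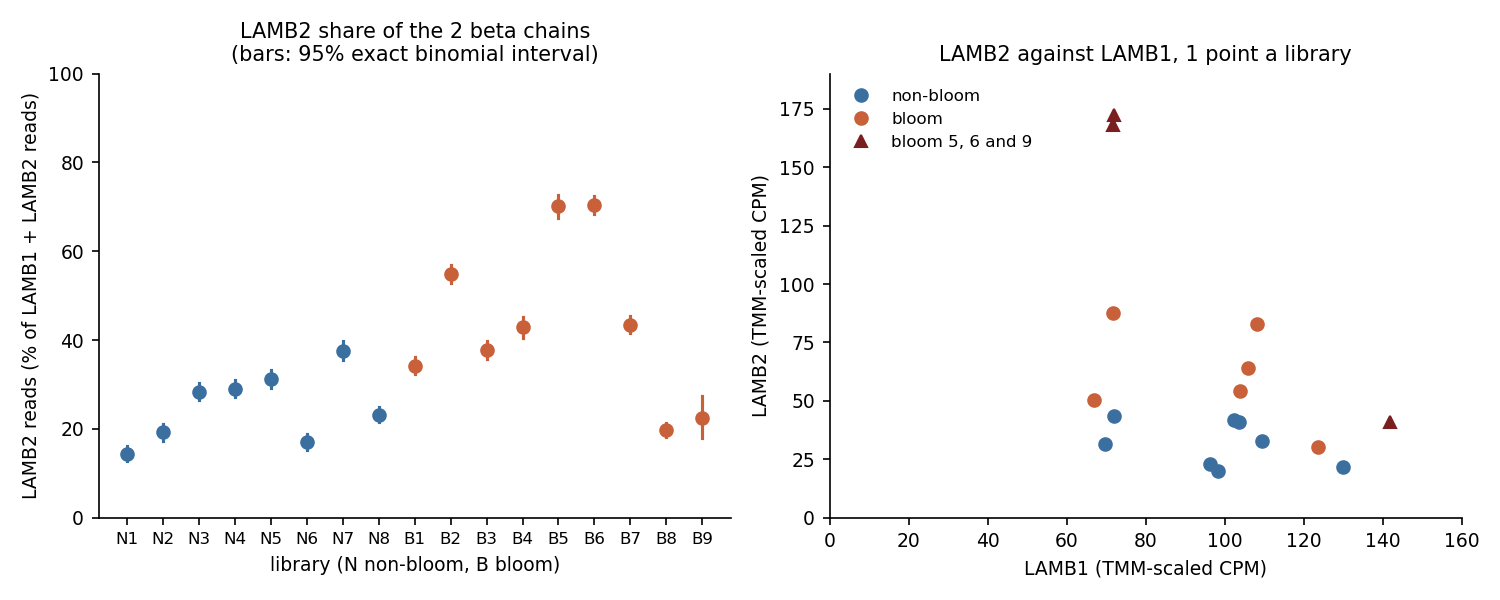
Left, LAMB2 reads as a percent of LAMB1 plus LAMB2 reads in each library, with 95% exact binomial intervals; right, LAMB2 against LAMB1 level (TMM-scaled CPM), 1 point a library. The share is highest in bloom 5 and 6, at 70.1% and 70.5%, where LAMB2 is at 168 and 172.4 and LAMB1 at 71.7 and 72.1.

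Of the gamma chains, LAMC1 is the common one, found in most laminin trimers. Its levels ran from 13.0 over a median of 19.7 to 33.4 in non-bloom cortex and from 15.1 over 31.4 to 76.7 in bloom cortex. The seasons overlapped in 5 of 9 bloom libraries, and the change of 0.66 (SE 0.29, limma adjusted p = 0.115) did not pass. LAMC3, the rarer gamma chain, whose mutation in people disturbs the folding of the occipital cortex, ran from 1.42 over a median of 2.44 to 7.00 and from 0.987 over 4.00 to 12.5. Its change was 0.50 (SE 0.33, limma adjusted p = 0.279) and 0.14 (SE 0.30) without bloom 5, 6 and 9.

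HSPG2, the core protein of perlecan, had a lowest value of 8.21, a median of 14.5 and a highest of 27.9 in non-bloom cortex, and 5.14, 32.9 and 92.7 in bloom cortex. Bloom 6 (92.7) and bloom 5 (58.9) were highest, bloom 9 (5.14) was the lowest of all libraries, and 6 of 9 bloom libraries lay above the non-bloom range. The log2 change was 1.02 (SE 0.40, limma adjusted p = 0.0872; edgeR adjusted p = 0.0503). Without bloom 5, 6 and 9 it was 0.99 (SE 0.25, limma adjusted p = 0.0497), and the bloom mean of those 6 libraries was 30.9 ± 8.05 (SD, n = 6) against 15.9 ± 7.41 (SD, n = 8). With edgeR on those 14 libraries the adjusted p was 0.0867. The change was thus about as large with and without these 3 libraries, while the bloom SD fell from 25.3 to 8.05.

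**Figure D3:**
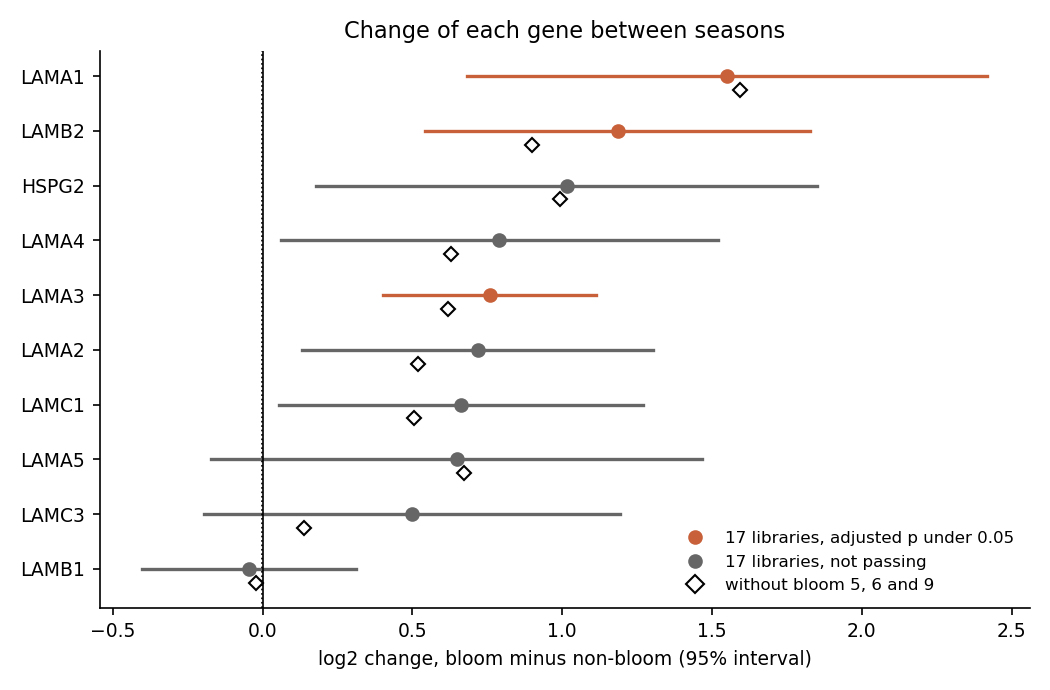
Log2 change (bloom minus non-bloom) of the 10 genes with 95% intervals over 17 libraries, coloured where the limma adjusted p was under 0.05, and as open diamonds without bloom 5, 6 and 9; the dotted line is the median of all genes tested. LAMA1 (1.55), LAMB2 (1.18) and LAMA3 (0.76) passed, and LAMB1 (-0.045) is the only gene of the 10 below 0.

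The calls rested on single libraries to unequal degrees. LAMA3 remained called in 15 of 17 fits with 1 library left out and lost the call without non-bloom 2 or without bloom 6, with a highest limma adjusted p of 0.0610. In those fits none of the 10 was called, and 0.396% and 0.926% of all genes were called higher. LAMA1 lost it without non-bloom 1, 2, 6 or 8 or bloom 2, 5, 6 or 7, and LAMB2 without non-bloom 1, 2, 6, 7 or 8 or bloom 2, 5, 6 or 7. The log2 changes in these 17 fits ran from 0.70 to 0.86 for LAMA3, from 1.31 to 1.74 for LAMA1 and from 1.03 to 1.33 for LAMB2.

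Levels of cell type markers are given here beside those of these genes, and they did not all move alike. In bloom 9, where LAMA4, LAMA5 and HSPG2 were lowest, astrocyte markers summed to 9605, oligodendrocyte markers to 14110 and endothelial markers to 220.02. Over all genes tested limma called 4.47% higher and 4.69% lower, and edgeR 6.07% and 2.55%. At an unadjusted p under 0.05 (limma), 16.4% of the 13548 genes tested were higher and 2581 genes were lower. Of 14 endothelial markers tested, 13 had positive changes and 1, SLCO1A2, rose; their summed level was 390 to 1006 in non-bloom cortex and 220.02 to 3201 in bloom cortex, highest in bloom 6 and bloom 5 (2936) and lowest in bloom 9. Of 11 pericyte and smooth muscle markers, 10 had positive changes and KCNJ8 rose, with summed levels of 56.3 to 269 and 75.5 to 291. All 11 astrocyte markers had positive changes and none passed (limma; without adjustment 5 had a p under 0.05; edgeR called 2), with summed levels of 1812 to 3315 and 1413 to 10253. All 11 pan-neuronal markers had negative changes and SYT1 fell, with summed levels of 8626 to 15002 and 2282 to 11041, lowest in bloom 5. Of 8 markers of vascular and meningeal fibroblasts tested, SLC6A13 rose and PDGFRA, also a marker of oligodendrocyte precursors, fell, with summed levels of 24.2 to 116 and 18.1 to 74.4; edgeR called no member of that list lower. Of 9 oligodendrocyte markers 2 rose, with summed levels of 1682 to 8018 and 4407 to 19137. Of 5 blood cell markers tested 2 fell, with summed levels of 24.3 to 320.1 and 3.16 to 129. Of 5 microglia markers tested none passed (limma; without adjustment 1 was lower at a p under 0.05; edgeR called 1 lower), with summed levels of 3.82 to 251 and 4.90 to 30.8. Without bloom 5, 6 and 9 the calls of SLCO1A2, KCNJ8, SLC6A13, PDGFRA and the 2 oligodendrocyte markers were lost (limma), while SYT1 and 1 blood cell marker, S100A12, stayed called lower. There 1.68% of all genes were called higher and 0.659% lower. The bloom range of the summed level was then 308 to 1590 for endothelial, 1413 to 6294 for astrocyte, 4407 to 8691 for oligodendrocyte and 6074 to 11041 for pan-neuronal markers. The median log2 change of the endothelial markers was 0.52 over 17 libraries and 0.26 without these 3, that of the astrocyte markers 1.27 and 0.64, and that of the pan-neuronal markers -0.68 and -0.35. No marker listed was at 0 in all libraries, but choroid plexus markers summed to at most 5.24 in non-bloom and 1.58 in bloom cortex.

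Each marker covariate was the mean of log2(level + 1) over the tested markers of its list, not the summed level. With the endothelial marker level as a covariate, LAMB2 and LAMA3 stayed past the threshold. Their log2 changes were 0.85 (SE 0.17, limma adjusted p = 0.0210) and 0.70 (SE 0.17, limma adjusted p = 0.0443). LAMA1 did not pass, at 1.26 (SE 0.37, limma adjusted p = 0.0666). LAMA5 was at 0.19 (SE 0.18) in that fit, where 1.36% of all genes were called higher. With the pan-neuronal level as a covariate no gene of the 10 passed, where 0.0295% of all genes were called higher, and LAMA1, LAMB2 and LAMA3 were at 0.99 (SE 0.44), 0.50 (SE 0.23) and 0.60 (SE 0.19). With the pericyte and smooth muscle or the astrocyte level as a covariate no gene of the 10 passed either, and 0.17% and 0.0886% of all genes were called higher. LAMA3 was at 0.67 and 0.68 in those fits (limma adjusted p = 0.142 and 0.200), LAMB2 at 0.69 and 0.64 (0.195 and 0.303) and LAMA1 at 0.97 and 0.92 (0.206 and 0.334). With the log2 ratio of mitochondrial to other reads as a covariate LAMA1, LAMA3 and LAMB2 passed, where 8.1% of all genes were called higher. Whether changed cell content produced the changes was not tested.

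Across libraries the 10 genes fell into a large set and LAMB1. Between the 36 pairs without LAMB1 Pearson's r of the log2 levels over 17 libraries ran from 0.42 to 0.92 with a median of 0.73, and over the 14 libraries without bloom 5, 6 and 9 from 0.26 to 0.89 with a median of 0.67. The highest were LAMA5 with HSPG2 (0.92) and LAMA2 with LAMC1 (0.91). All 9 pairs with LAMB1 had a negative r, from -0.60 to -0.15 over 17 libraries and from -0.46 to -0.02 over 14. With the season means subtracted, the 36 pairs without LAMB1 ran from -0.11 to 0.92 with a median of 0.65. LAMA3 was then only loosely tied to the set, from -0.11 with LAMA1 and 0.10 with HSPG2 to 0.65 with LAMC3. The 9 pairs with LAMB1 ran from -0.65 to -0.15 there, with a median of -0.50. These values are descriptions: the genes share libraries, depth and scaling.

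**Figure D4:**
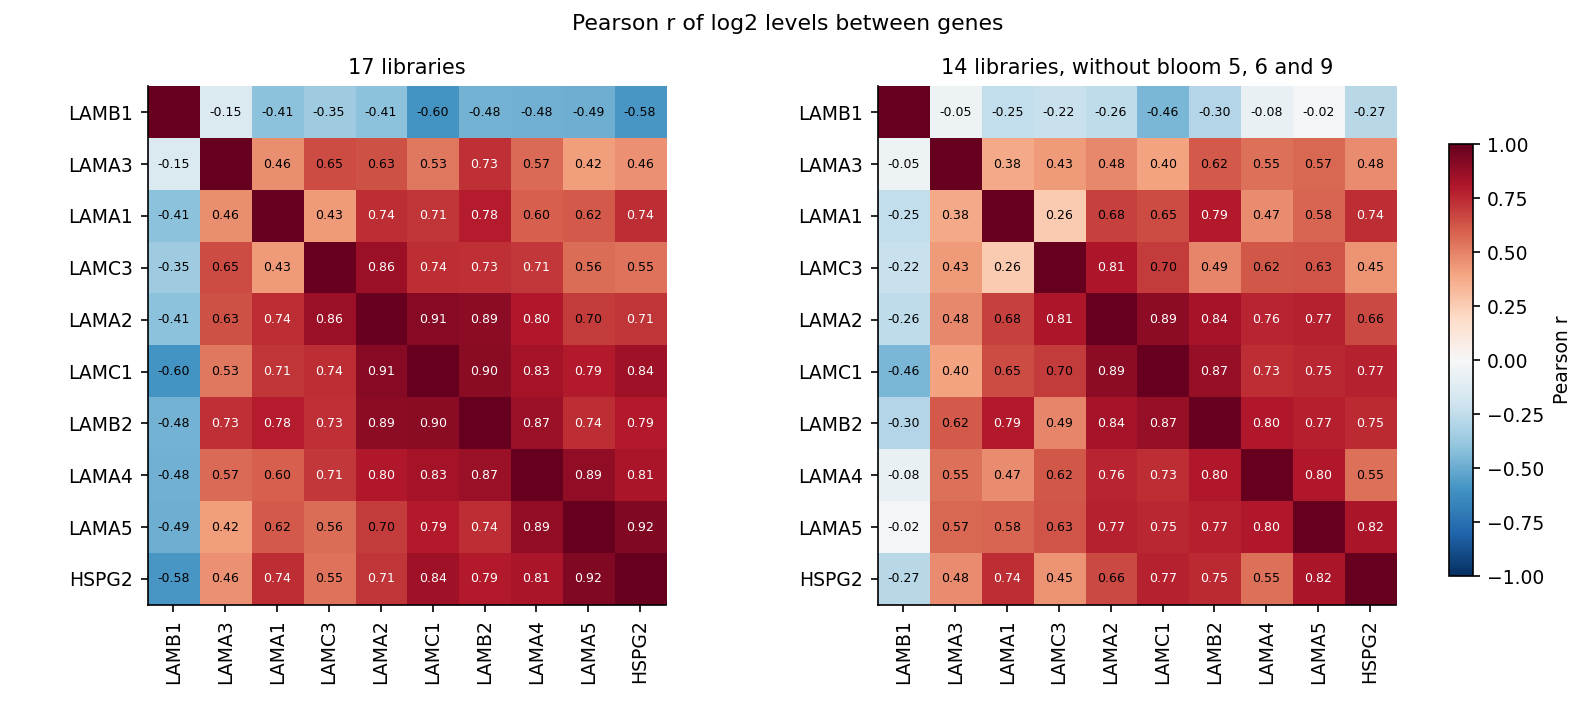
Pearson's r of log2(level + 1) between each pair of the 10 genes over all 17 libraries (left) and over 14 libraries (right). The row of LAMB1 is negative throughout, from -0.60 to -0.15 on the left and from -0.46 to -0.02 on the right, and all other pairs are positive.

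Within the non-bloom season, non-bloom 7 was the highest of 8 libraries for 6 of the 10 genes, and non-bloom 5 and non-bloom 6 were each the lowest for 4. In the bloom season, bloom 6 was among the 2 highest of 9 libraries for 8 genes and bloom 5 for 6, while bloom 8 and bloom 9 were each among the 2 lowest for 6. The 3 libraries that stand apart therefore did not move alike for these genes: bloom 5 and 6 were at the top and bloom 9 mostly at the bottom. The spread within bloom cortex was widest for LAMC3, LAMA4, HSPG2, LAMB2 and LAMA5, with SDs of 72.9%, 68.1%, 66.7%, 62.9% and 61.9% of the mean.

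The genes most like each member in pattern were found as the 2 highest r over the 17 libraries among all genes tested. For LAMB2 they were FHOD1, a formin (0.97), and KDR, the endothelial receptor for VEGF (0.97). For LAMA5 they were PTPRB, an endothelial phosphatase (0.97), and FOXF2, a transcription factor of brain pericytes (0.96). For LAMA4 they were RAG1 (0.95) and CAVIN1, a coat protein of caveolae (0.95). LAMC1 was nearest to MAGT1 (0.97) and to ANPEP, a peptidase of pericytes (0.95). LAMA2 was nearest to TIMP3, a matrix-bound metalloproteinase inhibitor (0.98), and GULP1 (0.96). The nearest to HSPG2 reported here was CDK3 (0.94), and the nearest to LAMC3 were the focal adhesion protein TNS3 (0.92) and the scaffold protein IQGAP1 (0.90). LAMA1 was nearest to NRBP2 (0.92) and ARHGEF40 (0.89). LAMB1 was nearest to JPT1 (0.90) and ACHE, acetylcholinesterase (0.89).

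All of these r values were at least 0.84 over the 14 libraries without bloom 5, 6 and 9, and at least 0.83 over 17 libraries with the season means subtracted. The exceptions were the 2 genes nearest to LAMA3. KIF20B, a mitotic kinesin, had an r of 0.84 over 17 libraries and 0.67 with the season means subtracted. ZNF235, a zinc finger gene, had 0.82 over 17 libraries, 0.80 over 14 and 0.41 with the season means subtracted. Of the nearest genes named, RAG1, CDK3, ANPEP and GULP1 were low, so their r values rest on few reads. Their mean levels in non-bloom cortex were 0.52, 0.80, 0.90 and 1.31. All 17 libraries together held 293, 284, 362 and 398 reads of them, and bloom 9 held 0 of RAG1 and CDK3.

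Receptors of laminin are the integrins, dystroglycan and the Lutheran glycoprotein BCAM. Of 9 receptor genes tested 2 rose, beside 4.47% of all genes called higher, and none fell. The median log2 change was 0.55 (0.33 without bloom 5, 6 and 9). ITGB4, which pairs with ITGA6 in the integrin of hemidesmosomes, rose from a mean of 14.2 ± 2.72 (SD, n = 8) to one of 23.2 ± 3.43 (SD, n = 9), by 0.67 on the log2 scale (SE 0.13, limma adjusted p = 0.0178). ITGA7, the laminin-binding alpha chain of muscle and vessel wall, rose from a mean of 32.4 ± 12.5 to one of 77.6 ± 35.4, by 1.18 on the log2 scale (SE 0.27, limma adjusted p = 0.0296). Both passed without bloom 5, 6 and 9 (limma adjusted p = 0.0378 and 0.0472), where 1.68% of all genes were called higher. For both, all 9 bloom libraries lay above the non-bloom median. BCAM, which binds LAMA5, was at 31.3 ± 7.57 and 84.4 ± 75.0 (log2 change 0.98, SE 0.40, limma adjusted p = 0.0927; edgeR adjusted p = 0.0451). DAG1, which encodes dystroglycan, was at 51.8 ± 19.1 and 62.8 ± 38.9 (log2 change 0.067, SE 0.35, limma adjusted p = 0.904).

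Inside the cell dystroglycan is anchored by the dystrophin complex. Of 12 genes of that complex 1 rose, SSPN, which encodes sarcospan (log2 change 0.67, SE 0.20, limma adjusted p = 0.0444; 0.0852 without bloom 5, 6 and 9), and the median was -0.11. That 1 of 12 stands beside 4.47% of all genes called higher. SGCB, a sarcoglycan, was at -0.53 (limma adjusted p = 0.0585). Of 13 genes of the sugar chain through which dystroglycan binds laminin 1 rose, B3GALNT2 (log2 change 0.66, SE 0.17, limma adjusted p = 0.0349; 0.105 without bloom 5, 6 and 9), 8 had negative changes, and the median was -0.35 (-0.19 without bloom 5, 6 and 9). The count of 1 in 13 also stands beside 4.47% of all genes. B4GAT1, which primes that chain, was at -1.14 (SE 0.38, limma adjusted p = 0.0572).

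Other basement membrane proteins had a median log2 change of 0.61 over 14 genes (0.38 without bloom 5, 6 and 9), 12 of them positive, and none passed (limma; without adjustment 3 were higher and 1 lower at a p under 0.05; edgeR called 0). NID2, a nidogen that links laminin to collagen IV, was at 3.12 ± 1.41 (SD, n = 8) and 5.91 ± 2.42 (SD, n = 9), with a log2 change of 0.75 (SE 0.23, limma adjusted p = 0.0503). COL18A1, the source of endostatin, was at 1.19 (SE 0.43, limma adjusted p = 0.0701), and SMOC2 at -0.65 (SE 0.22, limma adjusted p = 0.0584). Of 4 netrins, which share the end domain of laminin chains, none passed (limma; without adjustment 2 were lower at a p under 0.05; edgeR called 0), and the median was -0.62 (-0.19 without bloom 5, 6 and 9). NTN1, NTN4 and NTNG1 were at -0.74, -0.50 and -1.04 on the log2 scale. Of all 13548 genes tested, 16.4% were higher and 2581 genes were lower at an unadjusted p under 0.05 (limma).

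Perlecan's sugar chains are made by the heparan sulfate enzymes. Of 23 such genes 2 fell, beside 4.69% of all genes called lower, none rose, 20 had negative changes, and the median was -0.61. edgeR called 1 of the 23 lower. HPSE, the heparanase that cuts the chains, fell from a mean of 8.50 ± 3.40 (SD, n = 8) to one of 3.27 ± 2.60 (SD, n = 9), by 1.32 on the log2 scale (SE 0.33, limma adjusted p = 0.0336). HS6ST2, a sulfotransferase, fell by 0.86 on the log2 scale (SE 0.26, limma adjusted p = 0.0498), and HS3ST2 was at -0.77 (SE 0.24, limma adjusted p = 0.0502). All 9 bloom libraries lay below the non-bloom median for each of these 3. Without bloom 5, 6 and 9 the changes of HPSE and HS6ST2 were -0.82 and -0.45 and did not pass (limma adjusted p = 0.0944 and 0.145), and the list's median was -0.23. Of 9 other heparan sulfate proteoglycans 1 fell, GPC4, a glypican, beside 4.69% of all genes called lower. It fell by 1.07 (SE 0.32, limma adjusted p = 0.0458, edgeR adjusted p = 0.0804). SDC4 was at 1.54 (SE 0.55, limma adjusted p = 0.0688) and GPC6 at -0.66 (SE 0.25, limma adjusted p = 0.0810).

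Among 12 proteases of the basement membrane and their inhibitors, BMP1, which trims laminin and procollagen, rose from a mean of 10.2 ± 1.86 (SD, n = 8) to one of 15.5 ± 3.57 (SD, n = 9), by 0.55 on the log2 scale (SE 0.15, limma adjusted p = 0.0397). MMP9, a gelatinase also stored in neutrophils, fell by 1.85 (SE 0.51, limma adjusted p = 0.0397). Its levels were 7.86 ± 12.5 and 0.387 ± 0.498, and the neutrophil genes S100A9 and S100A12 of the blood list fell as well, by 2.25 and 2.87. TIMP2 was at -0.50 (SE 0.18, limma adjusted p = 0.0729). The calls of 1 gene higher and 1 lower among these 12 stand beside 4.47% and 4.69% of all genes.

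Of the 9 genes called in these related lists, ITGB4 remained called whichever library was left out, with log2 changes from 0.61 to 0.73 and a limma adjusted p of at most 0.0482. ITGA7 was called in 10 of 17 such fits, HPSE and B3GALNT2 in 8, SSPN and MMP9 in 6, BMP1 in 5, GPC4 in 4 and HS6ST2 in 3. Leaving out non-bloom 1, 2, 6 or 8 or bloom 2, 6 or 7 lost all of these calls but that of ITGB4. Between 0.447% and 1.96% of all genes were called in those fits. The log2 changes over the 17 fits ran from 1.06 to 1.31 for ITGA7, from 0.58 to 0.73 for B3GALNT2 and from -1.49 to -1.17 for HPSE. None of the 9 except ITGB4 and ITGA7 passed without bloom 5, 6 and 9.

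**Figure D5:**
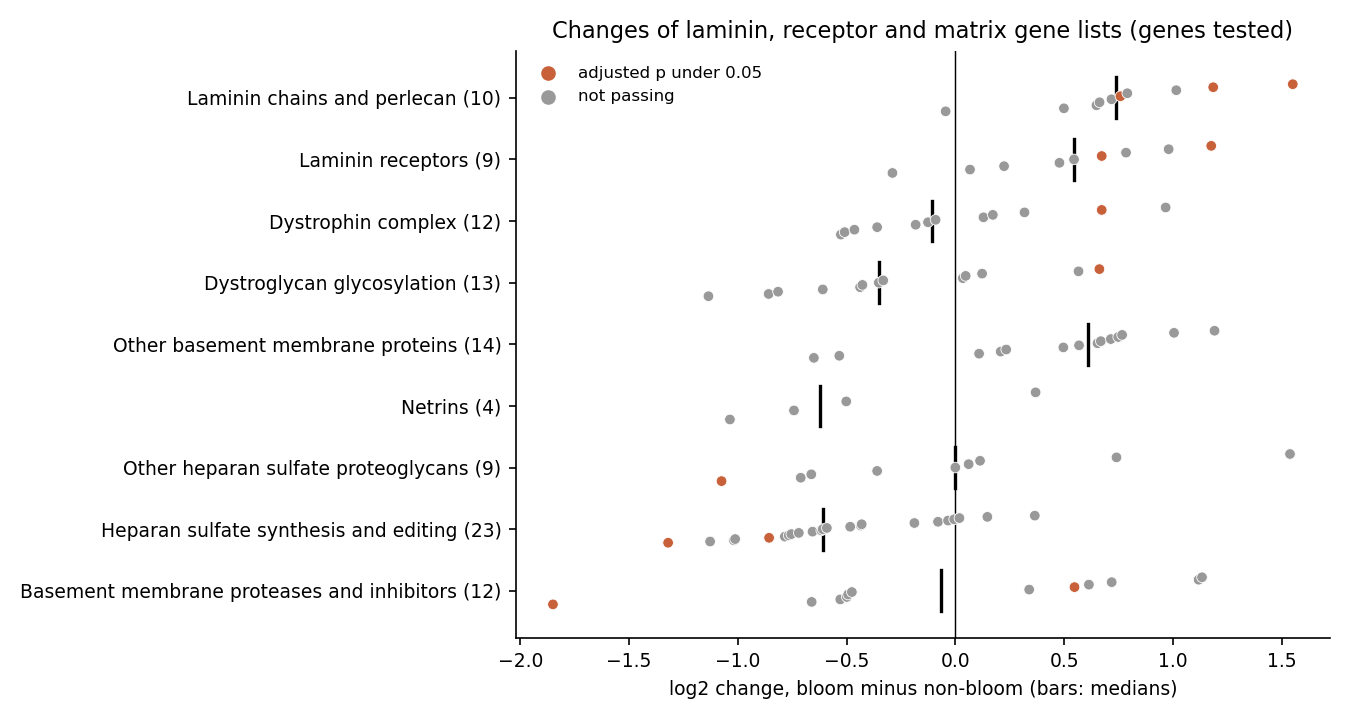
Log2 change (bloom minus non-bloom) of each tested gene in the laminin and perlecan set and in 8 related lists, 1 point a gene, with the number tested in brackets, bars at the list medians and colour where the limma adjusted p was under 0.05. The medians lie at 0.74 for laminins and perlecan, 0.55 for receptors and 0.61 for other basement membrane proteins, and at -0.61 for heparan sulfate synthesis and -0.35 for dystroglycan glycosylation, over all 17 libraries.

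LAMB3 is the beta chain that pairs with LAMA3 in epithelial laminin. It was read at 70.9 to 116 in non-bloom and 47.4 to 121 in bloom cortex, with a log2 change of -0.23 (SE 0.17, limma adjusted p = 0.320). LAMB4 was at no more than 0.478 in any library and failed the filter on low counts.

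In the files LAMA1 lies on GeneScaffold_545 from 5885 to 145375, LAMB2 on GeneScaffold_2343 from 701548 to 712952 and LAMA3 on GeneScaffold_1353 from 446777 to 678884. HSPG2 lies on GeneScaffold_3223 from 17090 to 122359. LAMB1 lies on GeneScaffold_391 from 49669 to 124268, on the same scaffold as LAMB4, and LAMC1 on GeneScaffold_1408 from 426498 to 548391. These are the coordinates of the deposited files; their genome build is not stated in the sources used here. No gene model of the 10 overlapped another gene with reads, and the files give no strand.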

How the data were processed

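The deposited signal is 1 value per gene and library; per the submitters' processing notes reads were trimmed with Trim Galore 0.6.1 and aligned with STAR 2.5.2a, whereas the counter, the build and the gene annotation are not stated in the sources used here. Every nonzero deposited value (100%) was a whole multiple of 1 read within 0.01, and the factors equalled TMM factors recomputed here, so the values are TMM-scaled CPM and the reads could be recovered. Per the labels' protocols, libraries came from 600 ng of RNA with 14 PCR cycles.

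Genes were kept by filterByExpr (minimum count 10, minimum total 15), which left 13548. limma-trend was fitted to log2(value + 1), with season as its one term, and p-values were adjusted over all genes tested by the Benjamini-Hochberg method. Library measures were tested by exact permutation over 24310 splits. The tools were limma 3.58.1, edgeR 4.0.16 and DESeq2 1.42.0 under R 4.3.3. The limma and edgeR fits were first tested on simulated counts, and the permutation test was not.

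The 10 genes and all lists were chosen with earlier results of these data known. All 10 are named, with the 2 genes closest in pattern to each; of each related list every called member and up to 3 with the smallest p are named, except for a few genes that are not reported here but stay in every fit and count. DAG1 and LAMB3's neighbours in pattern and position were chosen after their values were seen. Closest pairs of libraries within a season differed by a chi-square of at least 17.7 per gene, so none was merged. Each dolphin has its own label, and p-values measure spread between dolphins. Covariates from pericyte and astrocyte markers and settings for library measures were added after seeing the data. No sequence is printed.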

Additional observations from a re-analysis of the deposited data

Results flagged for a closer look

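In 28 groups of libraries checked, 3 had a highest or lowest library far from the nearest other. Chance alone gives such a gap in about 1 of 20 groups if values are normally distributed. Levels need not be, and the groups share libraries, so that rate is only a guide. Of the 3, 2 concern non-bloom 7: LAMA2 was at 21.1 there, against 11.5 in the next library, and LAMC3 at 7.00 against 3.27. The summed level of the pericyte and smooth muscle markers was also highest of the non-bloom libraries in non-bloom 7, at 269, as were those of fibroblast (116) and blood cell markers (320.1). Without non-bloom 7 the log2 change of LAMA2 was 0.86 and that of LAMC3 0.67, and neither passed (limma adjusted p = 0.0663 and 0.156). The mitochondrial share of non-bloom 1, 22.1%, stood above the next non-bloom library at 14.7%.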

How the results depend on the processing

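No paired analysis was possible because the labels give no replicate numbers that the seasons share. Among the 10 genes, 3 passed in the fit reported. With the pseudocount of 0.1 (3.68% of all genes called higher), the other filter (4.61%), 3 other scalings (4.37% to 4.85%) and edgeR (6.07%) the same 3 passed, and with no filter 2 (1.89%). DESeq2 and voom with quality weights each called 8. Of all calls 48.8% were higher by limma, 70.4% by edgeR and 61.4% by DESeq2. The pan-neuronal, pericyte and astrocyte covariates each left 0, removing bloom 5, 6 and 9 left 1 (HSPG2) by limma and 0 by edgeR, and leaving out 1 library gave 0 to 6. It gave 0 without non-bloom 2 or bloom 6, and 6 without bloom 9. LAMB1 changed sign with the pan-neuronal (0.11), endothelial (0.063), pericyte (0.070) and astrocyte (0.16) covariates, and lay between -0.12 and 0.017 with 1 library left out. LAMC3 changed sign with the pan-neuronal (-0.19) and pericyte (-0.071) covariates. The other 8 genes kept a positive change in all 34 fits. The seasons' difference in mitochondrial share went from 12.5 to -2.65 percentage points without bloom 5, 6 and 9, and that in nuclear reads from -3.58 to -1.36 in units of 1000000 reads, where it no longer passed. The causes of these differences were not tested. Counting error limits bloom 9 most, where 3 reads are worth 1.71 CPM.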

Other observations

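LAMB3 was chosen for a closer look after its values were seen. Over 17 libraries its log2 level was nearest in pattern to GON7 (Pearson's r 0.91), to DBN1, an actin-binding protein of dendritic spines (0.90), and to TSPOAP1 (0.89). Over the 14 libraries without bloom 5, 6 and 9 these were 0.79, 0.82 and 0.77. Its r with LAMB1 was 0.55 over 17 libraries and 0.53 over 14, while with the other 9 genes it lay between -0.73 and -0.38 over 17 libraries and between -0.46 and 0.02 over 14. In the files the gene nearest to LAMB3 is CAMK1G, a calmodulin-dependent kinase, 2414 bases away, and their levels had an r of 0.76 over 17 libraries and 0.53 over 14. CAMK1G was at 122.6 ± 25.4 (SD, n = 8) in non-bloom and 74.5 ± 38.7 (SD, n = 9) in bloom cortex, with a log2 change of -0.90 (SE 0.30, limma adjusted p = 0.0585). The files give no strand and no exon structure, so whether reads of one gene were counted for the other was not tested.

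Each alpha chain can be given as a share of the reads of all 5 alpha chains, which does not depend on library size. LAMA1 took 29.0% ± 12.9 (SD, n = 8) of alpha chain reads in non-bloom and 40.5% ± 10.4 (SD, n = 9) in bloom cortex, and LAMA5 36.2% ± 8.51 and 28.6% ± 8.47. Without bloom 5, 6 and 9 the bloom means were 43.3% ± 11.7 (SD, n = 6) for LAMA1 and 29.4% ± 6.51 for LAMA5. Bloom 9 held only 88 alpha chain reads. Bloom 8, where most of the 10 genes were low, had the highest LAMA1 share of all libraries, 58.4%. These shares are not per length and were given no test.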
